A study of Homo sapiens with 5 samples.

Results

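MYC occupied 4860 sites at the start of a single protein-coding gene in OVCAR8 cells with no HSF1 peak on the same interval. They were chosen by 3 conditions: a merged MYC interval with a peak of both MYC replicates, no peak of either HSF1 replicate touching it, and a midpoint within 1 kb of the transcription starts of exactly 1 protein-coding gene of GENCODE release 44. They made up 41.3% of the 11756 reproducible MYC sites and lay at 4458 genes, which is 22.3% of the 20033 protein-coding genes on chromosomes 1 to 22, X and Y. The choice used the peak calls themselves, so peak height, p-value and position within 1 kb are described here and not tested.

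OVCAR8 is an established human ovarian carcinoma line, and all samples were proliferating, untreated OVCAR8 cells fixed with 1% formaldehyde for 1 minute. In CUT&RUN an antibody brings a nuclease to a chromatin protein, and the DNA cut free around it is sequenced. The series held 2 HSF1, 2 MYC and 1 IgG libraries of 8265647 to 10084407 fragments, and peaks were called in each antibody library against the same IgG library. The labels do not say whether replicates came from separate cultures, so the spread between them may be technical.

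MYC binds DNA as a heterodimer with MAX through the E-box, CACGTG, a palindrome that reads the same on both strands. Other proteins of the MAX network, such as MXI1, MNT and MGA, compete for MAX and for the same sequence. In proliferating cells MYC is known for occupying CpG-rich promoters of genes for ribosome production, nucleotide synthesis, the cell cycle and glycolysis. HSF1, the master factor of the heat shock response, recognizes a different element of alternating GAA units.

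The strongest sites carried E-boxes beside their summits. Of the 12 sites with the highest mean fold enrichment, 10 had a CACGTG within 250 bp of the summits of both replicates. The same held for 967 of all 4860 sites (19.9%). The same copy had to lie within 250 bp of both summits, so a site whose summits lay far apart could count as without. Below are 30 bases around the E-box nearest to the summits at 7 of the 10, a set chosen after the values were seen. Each reads 5′ to 3′ on the strand of the gene (GRCh38), with CACGTG in capitals.

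TACR2, chr10:69409313-69409342, minus strand: aCACGTGtctatCACGTGgaaggatgtgat

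CCDC124, chr19:17932709-17932738, plus strand: aagccgccggacCACGTGtgtagtcgcagc

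LARP1, chr5:154755088-154755117, plus strand: aattgcatcaggCACGTGctcgcccccgtc

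DUSP2, chr2:96145214-96145243, minus strand: ttctgccggcgcCACGTGcgcgccgcgcgg

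TELO2, chr16:1493229-1493258, plus strand: ccagctcgcagcCACGTGgggaagcgcggc

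STX2, chr12:130839399-130839428, minus strand: agggacaaacagCACGTGtagcggaactgc

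UBAP2, chr9:34049232-34049261, minus strand: gttggaccacatCACGTGatgagcacaggg

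TACR2, the gene of a neurokinin receptor, had the highest peak of the 4860 sites, with a fold enrichment over IgG of 86.0 in replicate 1 and 60.6 in replicate 2. Its E-box lay 150 bp upstream of the summit in both replicates, and a second copy started a few bases away. At CCDC124, which encodes a ribosome-associated protein, the fold enrichment was 59.3 and 55.4 and the E-box lay 164 and 152 bp upstream of the 2 summits. LARP1 binds the 5′ ends of ribosomal protein mRNAs, and its site reached 60.4 and 48.2 with an E-box 235 and 233 bp downstream of the summits. At DUSP2, a phosphatase of MAP kinases (59.2 and 44.3), the distances were 74 and 129 bp downstream. At TELO2, STX2 and UBAP2 the E-box lay 36 to 141 bp downstream of a summit. Among these 7 sites only TELO2 had its E-box within 50 bp of a summit, 36 bp from that of replicate 1.

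Also among the 12 were POLR3D (42.9 and 58.8), MFSD3 (42.6 and 53.2), PPRC1 (40.7 and 51.6) and PLK3 (51.9 and 31.8). POLR3D encodes a subunit of RNA polymerase III, MFSD3 a transporter-family protein, PPRC1 a coactivator of mitochondrial biogenesis and PLK3 a polo-like kinase. POLR3D and MFSD3 had 1 E-box each within 250 bp of both summits. PPRC1 and PLK3 had 0 there. A strong MYC site therefore did not need an E-box at its summit or within this window.

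Across all 4860 sites the E-box was less dense at the summit itself than in a ring around it. The number of E-boxes per 100 sites and 50 bp was 1.72 within 50 bp of the replicate 1 summits and 1.08 within 50 bp of those of replicate 2. It rose to 3.74 and 2.92 at 50 to 100 bp and to 4.48 and 4.48 at 100 to 150 bp. It then fell to 2.96 and 3.30 at 150 to 200 bp and to 0.819 and 0.821 at 500 to 1000 bp. The ring at 100 to 150 bp held 2.60 times the density of the center in replicate 1 and 4.14 times in replicate 2, and 5.46 and 5.45 times the density of the far flanks. The center itself was at 2.10 and 1.32 times the far flanks. In steps of 50 bp both replicates thus had their maximum at 100 to 150 bp, although their own summits lay a median of 83 bp apart. In bins of 25 bp replicate 1 was highest 75 to 100 bp downstream (4.81) and replicate 2 100 to 125 bp upstream (4.61). These windows were chosen after the data were seen.

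**Figure D1:**
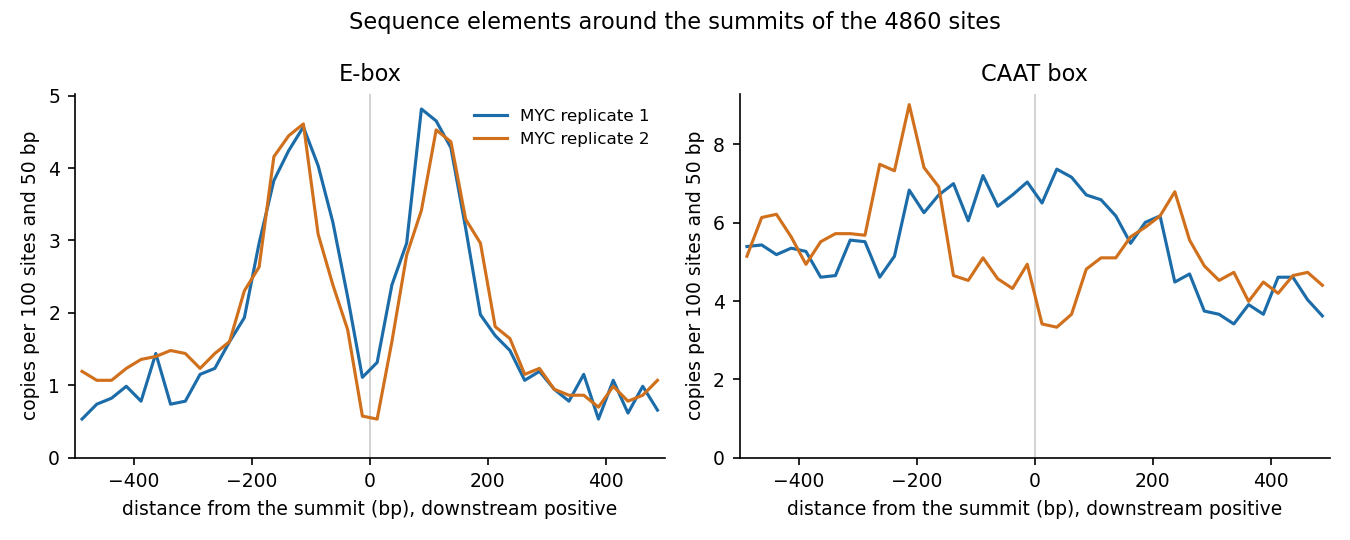
Copies of the E-box (left) and the CAAT box (right) per 100 sites and 50 bp, in bins of 25 bp, against the distance from the summit of each MYC replicate in the direction of transcription. The E-box has a peak on either side of both replicates' summits and a dip between them, while the CAAT box is lower under the summits of replicate 2 than under those of replicate 1.

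The ring had no side. Around the replicate 1 summits 721 E-boxes lay upstream and 698 downstream within 250 bp, and around those of replicate 2 670 lay upstream and 654 downstream. Where a site had an E-box in this window, the nearest copy was a median of 115 bp from the summit in replicate 1 (quartiles 76 and 159, 1218 sites) and 125 bp in replicate 2 (quartiles 88 and 167, 1145 sites). A copy on each side of the summit was present at 70 and 58 sites. The mean fragment size in the file headers was 180 bp for MYC replicate 1 and 191 bp for replicate 2. The part of fragment size in the dip was not tested.

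Other elements were searched on both strands in the same way. The variant E-box CACGCG also rose at 100 to 150 bp, to 3.79 and 3.47 times its level in the far flanks. Its density at the center was 2.57 and 2.54 times that level. CACATG, another variant, was at 1.08 and 0.860 times its far level at 100 to 150 bp. The ETS core CCGGAA stood at 3.49 and 3.70 times, the NRF1 core GCATGCGC at 7.25 and 5.37 times and the CRE TGACGTCA at 10.5 and 8.68 times their far levels. These 3 also dipped at the center, where the ring held 1.33 and 1.82, 1.54 and 1.96, and 1.64 and 11 times the central density. For CACGCG the ring held 1.47 and 1.36 times the central density, and for CACATG 1.73 and 1.81 times. A dip was thus not particular to the E-box. TGACGTCA was rare, at 0.473 and 0.340 copies per 100 sites and 50 bp in that ring. TATAAA was depleted, at 0.208 and 0.202 times its far level. Several GC-rich promoter elements were therefore denser near the summits than 500 to 1000 bp away, and the elements share base composition and overlap the starts of genes.

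With a window of 100 bp, 457 sites (9.40%, Wilson 95% interval 8.61 to 10.3) had an E-box beside the strongest summit. The share was 9.79% with the replicate 1 summits and 7.28% with those of replicate 2. For reference, 5.67% of the canonical starts of all protein-coding genes had one within 100 bp. With 250 bp the share was 25.1% (23.9 to 26.3) in replicate 1 and 23.6% (22.4 to 24.8) in replicate 2, against 11.0% of all canonical starts. The shares of sites are counted around summits and those of genes around starts. Counted around canonical starts with 250 bp, 16.4% of the 4458 member genes had an E-box. Genes with another reproducible MYC site had 15.2%, and genes with no reproducible MYC site 7.90%. In the whole interval 3309 sites (68.1%) had no E-box, 1226 had 1, 267 had 2 and 58 had 3 or more. Most of these sites therefore had no perfect E-box at all.

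The E-box share rose with peak height. To keep ranking and summit apart, sites were ranked by fold enrichment in a replicate and searched around the summits of the other. Ranked by replicate 1 into 5 equal groups of 972 sites, the share with an E-box within 250 bp of the replicate 2 summit was 12.8%, 16.05%, 20.5%, 26.1% and 42.4% from lowest to highest. Ranked by replicate 2 and searched around replicate 1 summits it was 15.7%, 17.5%, 21.7%, 26.1% and 44.2%. Both orders gave the same rise, and the Wilson intervals of the top group and the next did not overlap. With a window of 100 bp and the mean of the replicates, the share went from 4.73% to 16.6%. Median GC content went from 68.7% to 67.2% along the ranking of replicate 1 and from 66.2% to 69.2% along that of replicate 2, and was 67.7% to 68.2% in the groups by mean fold enrichment. The ring itself grew with height, from 2.11 to 8.80 copies per 100 sites and 50 bp in replicate 1 and from 2.06 to 9.26 in replicate 2.

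**Figure D2:**
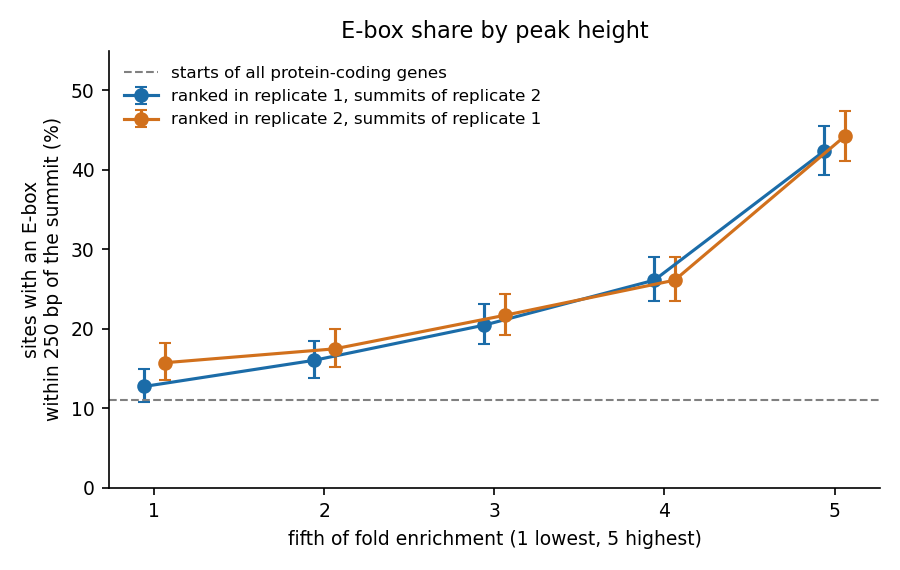
Percent of sites with an E-box within 250 bp of the summit in 5 groups of rising fold enrichment, with Wilson 95% intervals, ranked in one MYC replicate and searched around the summit of the other. Both rankings rise from 12.8% and 15.7% in the lowest group to 42.4% and 44.2% in the highest. The dashed line marks the 11.0% of all protein-coding starts, which is counted around the start and not around a summit.

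The bases next to the E-box differed between the occupied sites and the starts of genes without a reproducible MYC site. Within 250 bp of the strongest summits there were 1409 E-boxes, counted on either strand. The forms CCACGTGC (19.8%, Wilson 95% interval 17.8 to 21.96) and CCACGTGG (17.4%, 15.5 to 19.5) led together with CCACGTGA (17.1%, 15.2 to 19.2). Among the 1081 E-boxes at canonical starts of genes without a reproducible MYC site, CCACGTGG made up 8.42% (6.91 to 10.2) and CCACGTGC 14.2% (12.2 to 16.4). TCACGTGA went the other way, with 7.59% (6.32 to 9.095) at the sites and 12.95% (11.1 to 15.1) at those starts. In the highest group by mean fold enrichment CCACGTGG reached 20.6% and TCACGTGA 5.38% of 558 E-boxes, and in the lowest group they made up 12.7% and 11.9% of 134. ACACGTGG was also more frequent at the sites (11.6%, 10.1 to 13.4) than at those starts (7.68%, 6.24 to 9.42). CCACGTGA (17.1% and 19.8%) and GCACGTGC (5.96% and 7.68%) were lower at the sites, with overlapping intervals. GCACGTGA was lower at the sites (7.38%, 6.13 to 8.87) than at those starts (11.7%, 9.96 to 13.8). So was ACACGTGA (3.83%, 2.95 to 4.97, against 7.03%, 5.65 to 8.71). Every form with A after the core, which is T before it on the other strand, was thus lower at the sites. The clearly higher forms CCACGTGC, CCACGTGG and ACACGTGG have C before the core on either strand, but so does CCACGTGA. Among the 2500 E-boxes at all canonical coding starts, CCACGTGG made up 11.1%, CCACGTGC 15.1%, ACACGTGG 8.24% and TCACGTGA 13.96%. E-boxes of sites were counted around summits and those of genes around starts. The part of base composition and of position in these differences was not tested.

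Among the genes for which the study discusses binding, CDK4, ODC1 and MYC were members. CDK4, the cyclin D partner that drives cells past the restriction point, had a site of ordinary height at chr12:57751694-57752705, with fold enrichments of 11.1 and 10.1. It held 5 E-boxes, as many as the much higher site at NCL. A stretch of 113 bases upstream of the gene, chr12:57752448-57752560, is shown because it carries 2 of them.

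CDK4 promoter, minus strand: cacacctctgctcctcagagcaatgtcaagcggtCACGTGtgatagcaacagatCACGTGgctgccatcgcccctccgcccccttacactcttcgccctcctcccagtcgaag

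CDK4, further copy, chr12:57752394-57752423, minus strand: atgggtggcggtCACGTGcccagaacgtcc

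The pair in the long stretch lay 151 and 131 bp upstream of the replicate 1 summit, and the further copy lay 36 bp upstream of it. In the 250 bases before the CDK4 start of RefSeq (GRCh38.p14) there were 3 E-boxes. The replicate 2 summit lay farther downstream, so the same copies were 327, 307 and 212 bp from it.

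ODC1, the rate-limiting enzyme of polyamine synthesis and a classical MYC target, had a far higher site at chr2:10447599-10449495, with fold enrichments of 30.2 and 27.9. Its interval held 3 E-boxes. The copies 288 and 322 bp downstream of the start were 877 and 911 bp from the replicate 1 summit, and the copy 491 bp upstream of the start was 98 bp from it. The highest signal therefore lay beside the upstream copy. They are shown with CACGTG in capitals.

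ODC1 upstream copy, chr2:10448803-10448832, minus strand: cccggcggggccCACGTGgccagcacatcg

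ODC1 copy at 288 bp, chr2:10448024-10448053, minus strand: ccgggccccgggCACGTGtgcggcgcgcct

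ODC1 copy at 322 bp, chr2:10447990-10448019, minus strand: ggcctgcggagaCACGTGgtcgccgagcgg

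The other named genes were not all members. MYC itself had a site over its start that overlapped an HSF1 peak (chr8:127735041-127736559, 19.7 and 8.33). A second site downstream without one (chr8:127737682-127738132, 9.93 and 8.47), lower in replicate 1 but not in replicate 2, was counted. The sites at HSF1 (25 and 21.7) and MED15 (19.9 and 19.8) had no HSF1 peak on the same interval but lay within 1 kb of 2 or more coding genes. Those at ESRRA, HSPA1B and JMJD6 overlapped an HSF1 peak. PLK1, a mitotic kinase, had a peak in replicate 1 alone (13.2), as did the noncoding RNA gene NEAT1 (6.03). PROM2 and RBM23 had no MYC peak within 1 kb of a start. The study describes MED15 and NEAT1 as targets of both factors and reports MYC binding at PLK1. Peaks elsewhere in these genes were not examined here.

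Over all 4860 sites the fold enrichment ranged from 5.06 to 86.0 in replicate 1 (median 14.9, quartiles 11.5 and 19.7) and from 3.52 to 60.6 in replicate 2 (median 11.2, quartiles 9.12 and 14.5). The median −log10 p-value was 35.1 and 24.5, and the median pileup at the summit was 32 and 26 fragments. Replicate 2 was the higher of the pair at 1056 sites (21.7%). The replicates ordered the sites only in part: Pearson's r of the log2 fold enrichment was 0.57 and Spearman's rho of the fold enrichment 0.53 over the 4860 sites, which share 1 IgG library and are not replicates. Of the 486 sites in the top 10% of a replicate, 247 (50.8%) were in the top 10% of the other. Sites were 192 to 5918 bp wide, with a median of 791 bp.

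**Figure D3:**
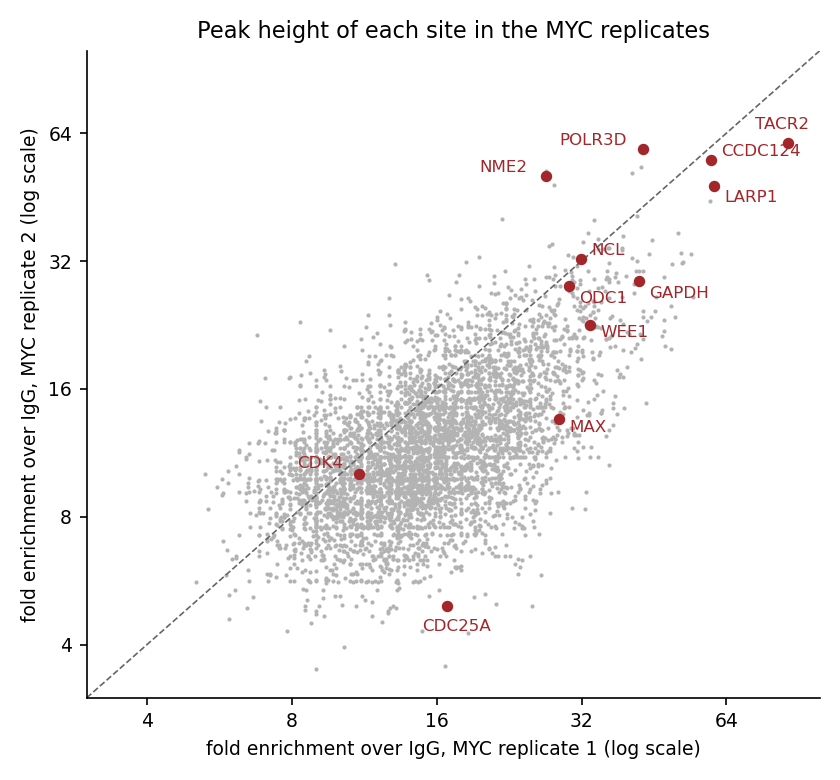
Fold enrichment over IgG of each of the 4860 sites in MYC replicate 1 and replicate 2, both on log scales. The line of equal values is dashed, and 12 sites are named. TACR2 is highest in both, NME2 and POLR3D lie above the line, and CDC25A (16.8 and 4.94) lies far below it.

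Sites at a single coding gene that overlapped an HSF1 peak were fewer and taller. There were 1195 of them, with a median fold enrichment of 20.2 in replicate 1 and 12.9 in replicate 2 and a median width of 969 bp. The 958 MYC-only sites at 2 or more coding genes had medians of 15.4 and 11.6, the 541 at a lncRNA start 14.3 and 10.4, and the 2318 with no start within 1 kb 13.95 and 9.78. Without an HSF1 peak, height therefore differed little between promoters and other places. The E-box share within 250 bp was 21.7% (19.4 to 24.1) and 21.8% (19.6 to 24.3) in the 2 replicates at the HSF1-overlapping promoters, and 26.8% (25.1 to 28.7) and 25.8% (24.1 to 27.6) at MYC-only sites away from starts. The ring was present in each of these classes, with 3.70 to 5.59 copies per 100 sites and 50 bp at 100 to 150 bp in either replicate.

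Heat shock elements were nearly absent from the 4860 sites. An element of 3 alternating GAA units lay within 100 bp of the strongest summit at 2 sites (0.0412%), against 8 (0.669%) of the 1195 promoters with an HSF1 peak and 0.225% of all canonical starts. Among the other MYC-only sites it was 3 of 958 (0.313%) at 2 or more coding genes and 1 of 541 (0.185%) at a lncRNA start. Away from starts it was 1 of 2318 (0.0431%). The rule removed sites with an HSF1 peak, so the contrast with promoters that have one follows in part from the choice. The same holds for the distances to HSF1 peaks. The median gap to the nearest HSF1 peak was 75867 bp. An HSF1 peak lay within 5 kb of 358 sites and within 1 kb of 114.

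The promoters themselves were GC-rich and mostly without a TATA box. Within 100 bp of their canonical starts the 4458 genes had a median GC content of 71.6%, against 60.2% for the 8732 genes with no MYC peak within 1 kb. GGGCGG, the core of the SP1 site, was present at 71.0% of these starts and at 53.7% of all coding starts. TATAAA was present at 3.14% and 6.67%. CACGTG was present within 100 bp at 8.46% of the 4458 starts, 8.19% of the starts of the 3333 genes with another reproducible MYC site, 4.67% for the 3510 genes with a MYC peak but no reproducible site and 3.68% for genes with none. The E-box share was thus higher at genes with a reproducible MYC site also at annotated starts, where peak calling plays no part in the position. It was not alone in this. The ETS core was present at 21.4% of the 4458 starts and at 10.6% for genes with no MYC peak. The NRF1 core was present at 4.24% and 1.53%. Other elements, the TATA box among them (3.14% and 11.3%), were less frequent at the 4458 starts. The part of base composition in the E-box difference was not tested.

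The summits lay on either side of the start. In replicate 1 2900 of them (59.7%) were upstream, with a median of 79 bp upstream, and in replicate 2 2334 (48.0%) were, with a median of 28 bp downstream. The 100 bp just before the start held 13.5% of the summits in replicate 1 and 6.67% in replicate 2. The bin from 100 to 200 bp downstream held 10.9% and 19.9%. Replicate 2 thus had fewer summits over the start itself and more downstream of it, and the side on which the median falls differs between the replicates. Within 250 bp of the start were 67.6% and 65.6% of the summits, and the interval covered the start at 4062 sites (83.6%).

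**Figure D4:**
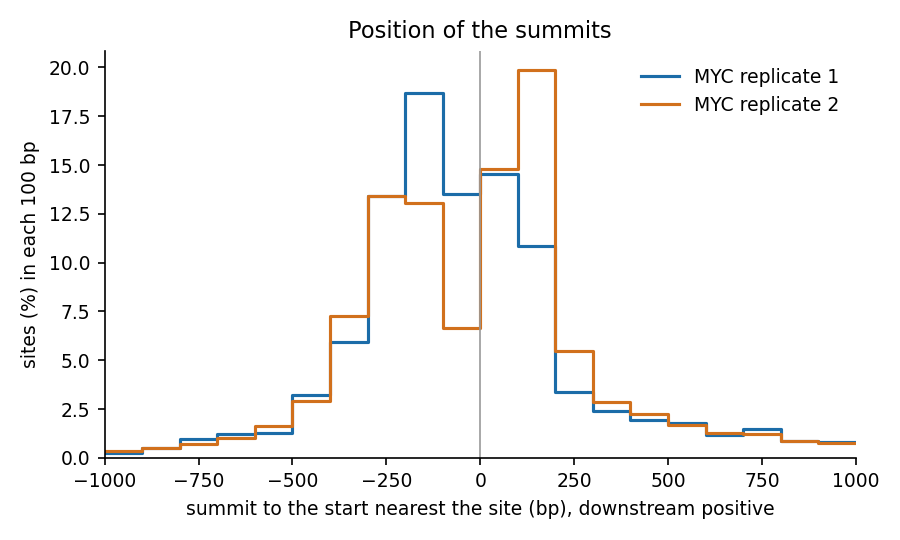
Percent of the 4860 sites with their summit in each 100 bp around the start of their gene, by MYC replicate, downstream positive. Replicate 1 is highest from 200 to 100 bp upstream (18.7%) and replicate 2 from 100 to 200 bp downstream (19.9%), with a gap of 6.67% just before the start in replicate 2.

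By annotation the strongest summit lay upstream of the gene at 1540 sites (31.7%), in an intron at 1474 (30.3%), in a UTR exon at 1158 (23.8%), in a coding exon at 506 (10.4%) and in a noncoding exon at 179 (3.68%). At 4083 sites (84.0%) the midpoint was within 1 kb of the canonical start, and the other sites were at alternative starts. A lncRNA also started within 1 kb of 1304 sites (26.8%), and at 1244 sites such a lncRNA ran on the opposite strand. The E-box share within 100 bp was 11.2% for summits upstream of genes, 9.02% in introns, 7.94% in UTR exons, 7.51% in coding exons and 11.7% (7.80 to 17.3) in noncoding exons.

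The sites on which the replicates disagreed differed in sequence. Ranked by the ratio of replicate 2 to replicate 1 into 5 groups, the median log2 ratio went from -1.03 to 0.26. CCAAT, the CAAT box bound by the factor NF-Y, lay within 100 bp of the strongest summit at 28.3%, 21.2%, 17.3%, 18.4% and 8.23% of sites from the lowest ratio to the highest. Over all 4860 sites it was 18.7%, and 25.3% of all canonical coding starts had it. With the summits of replicate 1 alone the share fell from 28.3% to 15.3%, and with those of replicate 2 from 20.5% to 8.23%, so the order did not depend on which summit was searched. Among the 1195 promoters with an HSF1 peak the same ranking gave 38.9% in the lowest group and 12.1% in the highest. Summits upstream of the start went from 68.4% to 54.9% in replicate 1 and from 56.8% to 41.9% in replicate 2 along the same ranking, and median GC content from 66.2% to 71.1%. The share with an HSF1 peak within 5 kb was 7.82% in both end groups. The part of summit position and base composition in the CCAAT difference was not tested.

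KMT5C, a histone H4 methyltransferase gene, and FDPS, an enzyme of the mevalonate pathway, were among the lowest ratios with a CCAAT within 100 bp of both summits, a choice made after seeing the values. KMT5C had fold enrichments of 18.6 and 4.25 and FDPS 23.8 and 6.09. Each sequence shows CCAAT or its reverse complement ATTGG in capitals.

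KMT5C, chr19:55339560-55339588, plus strand: ctgcgctttcggCCAATgagtgcgtcgat

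FDPS, chr1:155308678-155308706, plus strand: ttcagcccttccATTGGtcgtccgtcaca

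Genes of growth and division carried these sites more often than genes in general. Of the 290 genes in 9 lists of MYC-related functions, 155 were members, and each list had 45.0% to 65.0% of its genes among them, against 22.3% of all coding genes. Any reproducible MYC site within 1 kb of a start was found at 38.9% of all coding genes and at 75% to 97.0% of the genes in these lists. Peak height varied among the lists: the median mean fold enrichment of the members was 18.7 for nucleolar ribosome biogenesis and 17.8 for polyamine and nucleotide synthesis, and 11.9 for mitotic genes, with 13.2 for all 4860 sites.

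**Figure D5:**
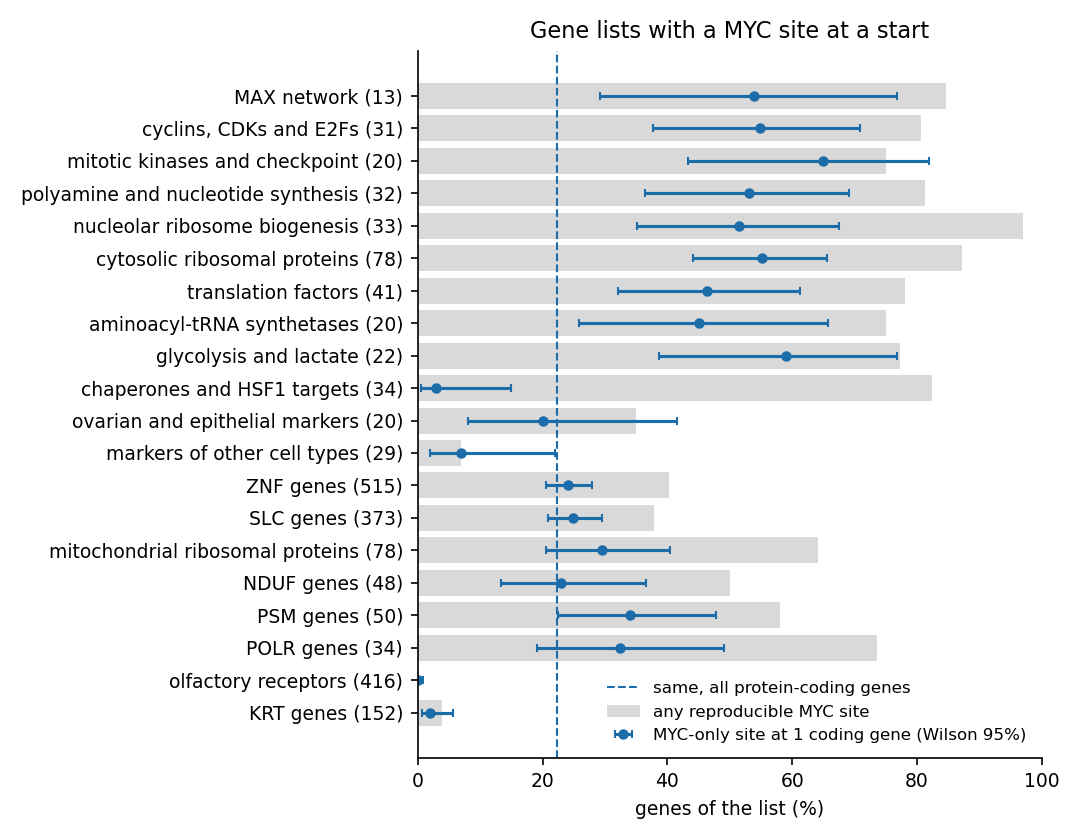
Percent of the genes of each list with a MYC-only site at 1 coding gene (points, Wilson 95% interval) and with any reproducible MYC site within 1 kb of a start (gray bars), with the number of genes in parentheses. The 9 lists of growth and division lie right of the dashed 22.3% of all protein-coding genes, while of the 34 chaperone and HSF1 target genes 28 have a MYC site and 1 is a member.

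Within the MAX network 7 of 13 genes were members. MGA, a repressive scaffold that pairs with MAX, had fold enrichments of 24.9 and 19.7. MAX, the obligate partner of MYC, had 28.7 and 13.6 with 3 E-boxes, and its interval ended 20 bp from an HSF1 peak. The antagonists MXI1 and MNT had 23.6 and 13.9, and 22.9 and 11.6. MLX, the partner of the glucose-sensing branch, had 14.6 and 12.6, and MYCL had 14.8 and 11.1. All 7, with MYC, were higher in replicate 1, as were most of the 4860 sites, of which 21.7% were higher in replicate 2.

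Among cyclins, CDKs and E2Fs 17 of 31 were members. CDKN2A, which encodes the inhibitors p16 and ARF, was highest in this list at 22.7 and 21.2, and the other inhibitors CDKN1A and CDKN1B had 17.8 and 10.1, and 10.6 and 9.52. Among the cyclins CCNA2 had 15.9 and 16.7, CCND1 11.5 and 14.2 and CCNB1 15.9 and 8.03. The kinases CDK7, CDK6 and CDK1 had 18.3 and 9.37, 15.2 and 11.5, and 12.7 and 6.63, and CDK6 had 3 separate sites. The phosphatases CDC25B and CDC25A, which activate CDKs, had 21.3 and 13.7, and 16.8 and 4.94. The E2F factors ran from E2F6 (16.5 and 14.3), a repressor, through E2F2 (19.9 and 10.4), E2F8 (14.05 and 7.37) and E2F5 (10.9 and 10.5) to E2F4 (9.62 and 9.89). Activators and inhibitors of the cycle were thus both present, with a median mean fold enrichment of 12.8 against 13.2 over all sites and CDKN2A well above it.

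Mitotic kinases and checkpoint genes had the highest share of the 9 lists, 13 of 20, but mostly low peaks. WEE1, the kinase that holds CDK1 inactive, stood apart at 33.2 and 22.7 with 3 E-boxes in its interval. BIRC5 had 19.3 and 16.4, CDC20 15.4 and 16.4, MAD1L1 20.9 and 12.2 and AURKB 12.7 and 11.1. The spindle and checkpoint genes BUB3, BUB1B, TTK, CHEK1, KIF11, MAD2L1, TPX2 and PLK4 lay between 7.06 and 14.3 in replicate 1 and between 7.09 and 13.6 in replicate 2. None of the 13 had an E-box within 250 bp of the summits of both replicates (0 of 13, Wilson upper bound 22.8%), and 19.9% of all sites (967) lies within that bound. Within 100 bp of the strongest summit 2 of the 13, WEE1 and BUB3, had one, where the share of all sites was 9.40%. The count around both summits thus depends also on the distance between the replicates' summits.

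In polyamine and nucleotide synthesis 17 of 32 genes were members and 8 of the 17 (47.1%, 26.2 to 69.0) had an E-box within 250 bp of both summits. Within 100 bp of the strongest summit 3 of the 17 had one. NME2, a nucleoside diphosphate kinase, had 27.0 and 50.7. The purine enzymes ATIC and PFAS had 25.6 and 27.2, and 25.4 and 21.3, and CAD, which starts pyrimidine synthesis, had 23.3 and 21.97. The ribonucleotide reductase subunits differed from each other, with 25.3 and 25.9 at RRM2 and 12.2 and 11.1 at RRM1. In the polyamine branch AMD1 had 17.5 and 18.03 and SRM 19.9 and 13.1. The folate and pyrimidine genes MTHFD2, CTPS1 and TYMS had 26.0 and 14.5, 24.3 and 15.6, and 22.2 and 11.8. DHODH (18.9 and 9.12), SHMT1 (15.4 and 10.5), UMPS (13.96 and 9.17), IMPDH2 (12.2 and 8.73) and GMPS (9.86 and 7.999) completed the list.

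Nucleolar genes had the highest peaks of the 9 lists and the largest share with an E-box. In this list 32 of 33 genes had a reproducible MYC site, 17 were members, and 9 of the 17 (52.9%, 31.0 to 73.8) had an E-box within 250 bp of both summits. NCL, the nucleolar protein nucleolin, had 31.9 and 32.3 with 5 E-boxes in its interval. DKC1, the pseudouridine synthase, had 27.7 and 35.1, PES1 32.2 and 24.8 and HEATR1 31.1 and 21.2. Another 10 of the 33 had a site shared with a second coding gene, and 5 a site that overlapped an HSF1 peak.

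Ribosomal protein genes were as frequent among the members. Of 78 genes 43 were members and 68 had a reproducible MYC site. RPL23A had 30.7 and 26.5, RPL10A 22.5 and 27.8 and RPSA 28.1 and 19.0. An E-box within 250 bp of both summits was present at 7 of the 43 (16.3%, 8.12 to 29.97), near the 19.9% of all sites. In 20 of the 43 (46.5%, 32.5 to 61.1) the peak was higher in replicate 2, against 21.7% of all sites.

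Of 41 translation factors 19 were members, led by EIF4H (25.02 and 15.7), the cap-binding protein EIF4E (18.9 and 19.2), EIF4B (19.2 and 17.7) and EIF2S2 (16.8 and 19.9). Of 20 aminoacyl-tRNA synthetases 9 were, among them LARS1 (18.9 and 22.4), NARS1 (15.4 and 14.5) and IARS1 (15.5 and 12.3). Of 22 genes of glycolysis and lactate 13 were, led by GAPDH (42.2 and 28.7), ENO1 (27.9 and 19.6) with 5 E-boxes in its interval, HK2 (21.7 and 18.7) and the glutamine carrier SLC1A5 (17.9 and 19.6).

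Chaperone genes were the mirror image. Of 34, 28 had a reproducible MYC site, but 26 had one that overlapped an HSF1 peak, and HSPA5, the chaperone of the endoplasmic reticulum, was the single member, with a low peak of 9.45 and 5.75. This follows in part from the rule, which removed sites with an HSF1 peak. Of 20 ovarian and epithelial markers, MSLN (26.4 and 23.7), CD24 (17.3 and 10.6), KRT7 (10.7 and 11.7) and EPCAM (11.2 and 9.81) were members, a share of 20% that is near the 22.3% of all coding genes. Another 11 of the 20, among them MUC16, WT1, SOX17 and CDH1, had no MYC peak within 1 kb of a start. Of 29 markers of other cell types, COL1A1 and CD8A were members and 23 had no MYC peak within 1 kb of a start.

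Large gene families divided. Zinc finger genes (124 of 515, 24.1%) and solute carriers (93 of 373, 24.9%) were near the 22.3% of all coding genes. Mitochondrial ribosomal proteins (23 of 78, 29.5%), proteasome genes (17 of 50, 34.0%) and RNA polymerase subunits (11 of 34, 32.4%) were higher, with intervals that reach 20.5%, 22.4% and 19.1%. Olfactory receptors, silent outside the nasal epithelium, had 0 of 416 (Wilson upper bound 0.915%), and genes with a symbol that starts with KRT, keratin-associated proteins included, 3 of 152. On chromosome X 58 of 859 genes (6.75%) were members and 99 (11.5%) had any reproducible MYC site, whereas the shares on the autosomes were 19.5% to 28.6% and 32.04% to 46.8%.

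Most genes had 1 such site (4102 of 4458), while 320 had 2, 28 had 3, 6 had 4 and 2 had 5. PLEC, a cytoskeletal linker with many alternative first exons, had 5 sites with fold enrichments of 7.92 to 44.1 in replicate 1 and 10.6 to 33.3 in replicate 2. UBTF, the RNA polymerase I factor, also had 5, with 7.63 to 13.9 and 8.62 to 12.6. AGAP3, CIRBP, FAH, GNAI2, LMNA and SEPTIN9 had 4 each.

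Some sites lay just inside or just outside the limits of the rule. The weakest calls inside were SCAF11 and GOLM1 in replicate 1, with a −log10 p-value of 10.1 each, and KMT5C and EEF1G in replicate 2, with 10.0 and 10.2. The midpoint of the DLG4 site lay 997 bp from a start, and that of a site near OAZ1, left out, 1002 bp. The FGFR1 interval ended 4 bp from an HSF1 peak, and PNMA1 and STAG2 were left out for an overlap of 3 bp. At HSPB6 and HTRA2 the next coding gene started 1005 bp away, and at IL17RC, left out, 999 bp.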

How the data were processed

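Peak lists of 2 MYC and 2 HSF1 CUT&RUN libraries of OVCAR8 cells were analyzed, each called by the authors on its own against 1 IgG library. According to the methods, reads were demultiplexed with bcl2fastq 2.20.0, trimmed, aligned to GRCh38/hg38 with Bowtie 2, and peaks were called with MACS2 (2.2.9.1 per the file headers) at a p-value of 1e-10 for MYC and 1e-04 for HSF1. The labels also list SAMtools and bedtools. The authors deposited for each peak the fold enrichment (signal over IgG, a ratio), the −log10 p-value and the pileup, a signal that counts fragments over the summit. The IgG library was used only through these calls.

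After filtering by MACS2 the libraries held 8265647 and 10084407 (MYC), 10042269 and 8721440 (HSF1) and 9306942 (IgG) fragments. The MYC lists held 25623 and 13278 peaks on chromosomes 1 to 22, X and Y, so the smaller library had more. A peak missing from a list was not called at that depth, which does not show that the protein is absent.

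MYC peaks of both lists were merged (26334 intervals, 11756 with both replicates), HSF1 overlap needed 1 bp, and every GENCODE transcript of a protein-coding gene gave a start. The fold enrichment of a site is that of its highest peak in each replicate. Motifs were searched on both strands around summits in the GRCh38 genome. Wilson intervals cover the counting error of sites, genes or E-boxes alone and not the spread between libraries. Sites and genes are not replicates, so no p-values are given. Steps were tested on simulated data in 20 runs. Python 3.11.15, pandas 2.3.3, numpy 2.4.6, scipy 1.17.1, pysam 0.24.0 and matplotlib 3.10.9 were used.

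The members and gene lists were chosen with earlier results of these data known. Genes named are the 12 members with the highest mean fold enrichment, the genes whose binding the study discusses, the 4 highest members of each list (all members for the MAX network, cyclins, mitotic and polyamine lists), the sites nearest each limit of the rule and genes with 3 or more sites, of which those with 4 or 5 and CDK6 are given. A few genes that this rule picks are not reported here. The ring windows, flanking bases, replicate ratios and sequences other than that of CDK4 were chosen after the data were seen.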

Additional observations from a re-analysis of the deposited data

How the results depend on the processing

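Which sites are members depends most on how the MYC replicates are combined. A peak of either MYC replicate gave 8768 sites at 7179 genes with an E-box share of 7.55% within 100 bp, and a MYC p-value of 1e-20 or less gave 3061 sites at 2914 genes. Leaving out MYC replicate 1 or 2 or HSF1 replicate 1 or 2 in turn gave 5224 to 8387 sites, 4768 to 6995 genes, E-box shares of 6.82% to 9.28% and median summit positions from -70 to 16 bp. The extremes of 8387 sites and 6995 genes came without MYC replicate 2, and those of 6.82% and 16 bp without MYC replicate 1. With the 5′ end of each gene as its only start the median summit lay at 56 bp in place of -62 bp. The other alternatives of the rule kept the number of sites within 1.5 times of 4860, all 14 moved the median height by less than the spread between replicates, and the number of listed genes among the members, 155, ran from 120 at 1e-20 to 187 with either replicate. The E-box share was 2.74% within 50 bp, 24.98% within 250 bp and 31.9% in the whole interval. The gain in E-box share from the lowest to the highest of 5 groups by height, 11.8 percentage points, was 10.3 and 8.33 with each replicate's own values, 1.85 with 50 bp, 33.8 with 250 bp and 44.1 in the whole interval. The fall in CCAAT share along the replicate ratio, 20.1 percentage points, was 12.96 and 12.2 with the summits of replicate 1 and 2, 21.6 with pileups, 13.3 with 50 bp, 20.6 with 250 bp and 16.7 in the whole interval. Those alternatives for height and ratio were chosen after seeing the data. Beyond the wider and narrower windows themselves, the cause of these shifts was not tested. No paired analysis was possible because no result comes from a test.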
